A study of Homo sapiens with 18 samples.

Results

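The genes described here are 45 cell division genes, chosen by name from the 36684 gene symbols of the count table. They form a replication set of 22 genes that are targets of E2F transcription factors (MCM2 to MCM7, MCM10, CDC6, CDT1, CDC45, GINS1, GINS2, PCNA, RRM1, RRM2, TYMS, POLA1, POLE2, CCNE1, CCNE2, E2F1 and E2F2) and a mitosis set of 23 genes (CCNA2, CCNB1, CCNB2, CDK1, CDC20, CDC25C, PLK1, AURKA, AURKB, BUB1, BUB1B, TTK, KIF11, KIF20A, KIF23, CENPE, CENPF, TOP2A, MKI67, BIRC5, UBE2C, TPX2 and FOXM1). All 45 genes passed the filter on low counts, as did 14557 genes of the table in all, and the question asked of them was whether both sets moved together between groups.

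RNA-seq was done on Hep3B, an established human hepatoma cell line, in 6 groups of 3 libraries. Con was untreated, the model group received free fatty acids (FFA) to induce steatosis, and the other groups received FFA together with a compound. The compound was fucoxanthin (FUCO), a carotenoid of brown algae, at 0.5, 1 or 2 µM (FUCO-0.5, FUCO-1 and FUCO-2), or Resmetirom (RES), a thyroid hormone receptor beta agonist and the study's reference drug. All treated groups therefore shared the FFA exposure, whose concentration and duration, like the RES dose, are not given in the sources used here for these libraries. Hep3B is a tumor-derived line, so its division is not that of resting hepatocytes.

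Replication genes are switched on late in G1, when cyclin-dependent kinases inactivate the retinoblastoma protein family and free E2F, and their products load and fire the MCM helicase, copy DNA and supply nucleotides. Mitosis genes peak later, in G2 and M, when the MuvB complex with B-MYB and FOXM1 acts on promoters that carry a CHR element and NF-Y boxes, and their products condense chromosomes, build the spindle and run its checkpoint. Both sets are commonly read as measures of proliferation in tissue and cultures.

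Promoter sequences were read to show the elements each set carries. The replication genes were chosen as E2F targets, so the share of E2F cores among them follows in part from that choice and is given as a description. RefSeq promoter windows on GRCh38.p14 (300 bases, 250 of them before the start site) were matched by symbol for 36 of the 45 genes, 19 of the replication and 17 of the mitosis set. An E2F core (TTTCCCGC, TTTCGCGC, TTTGCCGC or TTTGGCGC, on either strand) was present in a window of 14 replication genes (73.7%) and of 1 mitosis gene, CDK1 (5.88%), against 3.99% of all 27303 genes with a window. The CHR element (TTTGAA, on either strand) was present for 11 mitosis genes (64.7%) and 1 replication gene, RRM1 (5.26%), against 18.2% of all genes. The NF-Y box (CCAAT, on either strand) was present for 15 mitosis (88.2%) and 13 replication genes (68.4%), against 39.7%, and CHR element and NF-Y box together for 10 mitosis genes (58.8%) and 1 replication gene, against 7.26%. These matches are a description of letters in the windows.

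Promoters are given for 3 replication genes that hold an E2F core and 3 mitosis genes that hold both a CHR element and an NF-Y box, taken in the order of the smallest adjusted p in any main comparison. Each is read 5′ to 3′ on the gene's strand, runs from base -160 before the start site, which is base 0, and takes 20 bases from the start site on. Capitals mark the E2F core in the first 3 and the CHR element and NF-Y boxes in the last 3.
POLE2 (GRCh38.p14, chr14:49688195-49688374, minus strand): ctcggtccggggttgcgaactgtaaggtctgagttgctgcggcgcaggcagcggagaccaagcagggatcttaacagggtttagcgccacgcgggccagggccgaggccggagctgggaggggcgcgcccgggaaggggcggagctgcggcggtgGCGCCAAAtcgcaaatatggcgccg
CDT1 (GRCh38.p14, chr16:88803629-88803808, plus strand): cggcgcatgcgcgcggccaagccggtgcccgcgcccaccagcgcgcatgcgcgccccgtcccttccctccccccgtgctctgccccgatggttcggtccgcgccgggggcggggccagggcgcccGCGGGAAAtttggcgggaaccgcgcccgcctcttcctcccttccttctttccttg
GINS2 (GRCh38.p14, chr16:85688935-85689114, minus strand): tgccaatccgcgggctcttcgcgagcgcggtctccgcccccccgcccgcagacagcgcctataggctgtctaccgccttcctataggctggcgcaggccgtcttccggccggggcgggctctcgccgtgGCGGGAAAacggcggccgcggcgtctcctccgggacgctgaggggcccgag
KIF23 (GRCh38.p14, chr15:69414189-69414368, plus strand): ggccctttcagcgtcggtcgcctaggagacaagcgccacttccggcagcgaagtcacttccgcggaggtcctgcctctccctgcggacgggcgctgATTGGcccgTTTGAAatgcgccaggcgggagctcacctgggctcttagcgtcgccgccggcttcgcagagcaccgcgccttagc
KIF11 (GRCh38.p14, chr10:92592970-92593149, plus strand): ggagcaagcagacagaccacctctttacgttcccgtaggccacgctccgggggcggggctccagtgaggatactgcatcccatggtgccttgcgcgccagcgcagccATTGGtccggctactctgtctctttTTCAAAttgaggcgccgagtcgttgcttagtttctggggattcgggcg
MKI67 (GRCh38.p14, chr10:128126404-128126583, minus strand): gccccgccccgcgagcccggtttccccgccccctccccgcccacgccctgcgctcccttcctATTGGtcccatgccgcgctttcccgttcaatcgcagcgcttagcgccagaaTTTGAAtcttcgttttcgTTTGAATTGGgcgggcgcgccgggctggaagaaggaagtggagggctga

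In CDT1 the E2F core spans bases -35 to -28 and in GINS2 bases -31 to -24, while in POLE2 it lies across the start site, from base -5 to 2. In KIF23 the CHR element starts at -55, and in KIF11 at -28. MKI67 holds 2 CHR elements, at -47 and -29, and the second shares its last base with an NF-Y box that starts at -24. Of the other replication genes called in a main comparison below, CCNE1, CDC45, RRM2 and MCM10 held no E2F core in any window. MCM5, also called, had no window.

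Library totals ran from 16916688 to 23083498 counts, and every library had whole-number counts per gene. Replicate 1 of Con and replicate 1 of FUCO-2 stood apart from the other libraries of their groups, with a chi-square per degree of freedom of 16.2 and 13.7 against 2.34 between the other Con libraries, and of 20.05 and 19.3 against 5.91 between the other FUCO-2 libraries. FUCO-0.5 replicate 2 (10.8 and 18.5 against 6.03) and FUCO-1 replicate 3 (10.3 and 11.4 against 4.64) also stood apart in their groups. The counts of called genes in comparisons with Con or FUCO-2 are given with and without Con replicate 1 or FUCO-2 replicate 1. Comparisons with Con and between doses are not given without FUCO-0.5 replicate 2 or FUCO-1 replicate 3. Counts behind the 45 genes ran from 41 to 74 per library for E2F2, the lowest, and from 4128 to 10470 for TOP2A, so counting error was largest for E2F2. The next lowest were CCNE2 (171 to 341), POLE2 (175 to 304), CDC25C (188 to 455) and GINS2 (242 to 434), where it also counts beside small fold changes. The hepatocyte and hepatoma markers were abundant, and their summed level differed between groups, from 64610 to 72617 CPM in Con through 53625 to 54152 CPM with FFA alone to 36325 to 40755 CPM in FUCO-2 and 15630 to 16062 CPM in RES. Markers of immune, endothelial and mesenchymal cells summed to between 15.3 and 25.7 CPM in all libraries, with CD163, CDH5 and COL3A1 at 0. Of these 12 markers 5 passed the filter, and some were called. PECAM1 (3.44-fold) and COL1A2 (3.92-fold) were higher and PDGFRB lower (0.673-fold) in the model than in Con, all but PDGFRB with group means of at most 1.26 CPM. With RES, CD14 was 3.26-fold and COL1A1 1.54-fold the model's level, whereas PECAM1 (0.528-fold) and PDGFRB (0.0957-fold, from 12.3 to 1.16 CPM) were lower, and in FUCO-2 none was called against the model. Their part in the results on the 45 genes was not tested.

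Levels below are CPM (read counts scaled to a common library size), adjusted by edgeR's TMM factors. A gene is called where edgeR's quasi-likelihood test gave a Benjamini-Hochberg adjusted p under 0.05 over all 14557 tested genes, and fold changes are log2 values. In bulk RNA, fewer cells in a phase of the cycle and less RNA per cell cannot be told apart. Per kilobase of exon, the levels in Con ran from 0.516 CPM for E2F2, an activator of the replication genes, to 136 CPM for PCNA, the sliding clamp of the DNA polymerases, with MCM3 at 66.1, MCM7 at 58.1 and the spindle assembly factor TPX2 at 52.8 CPM.

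To summarize each set, the log2 CPM of its genes was averaged in each library and expressed relative to the mean over all 18 libraries. The mitosis score was -0.20, -0.35 and -0.35 in the Con libraries, 0.06, -0.01 and 0.09 in the model, and 0.18, 0.16 and 0.21 in FUCO-0.5. It was 0.05, -0.04 and -0.03 in FUCO-1, -0.22, -0.32 and -0.16 in FUCO-2, and 0.27, 0.29 and 0.38 in RES. Con and FUCO-2 thus overlapped at the low end, RES lay above all other libraries, and the remaining groups lay between them. The replication score had a far smaller range. Its group means were -0.08 ± 0.05 in Con, 0.02 ± 0.04 in the model, 0.11 ± 0.06, 0.05 ± 0.01 and -0.07 ± 0.02 at the rising FUCO doses, and -0.03 ± 0.02 in RES (SD, n = 3).

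**Figure D1:**
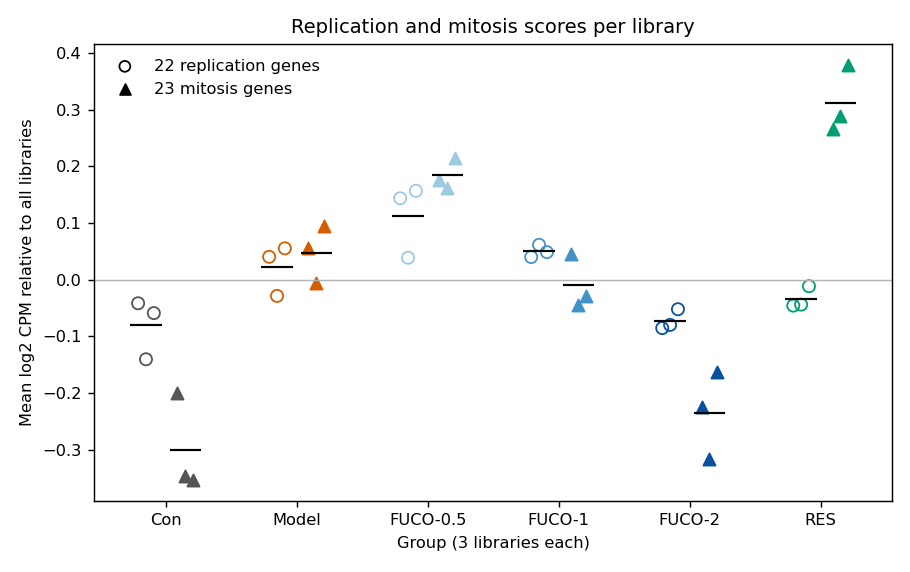
Mean log2 CPM of the 22 replication genes (open circles) and the 23 mitosis genes (filled triangles) in each library, relative to the mean over all 18 libraries, by group; bars are group means. The mitosis score ran from -0.35 in Con to 0.38 in RES, whereas the replication score stayed between -0.14 and 0.16.

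The replication score minus the mitosis score was 0.22 ± 0.07 in Con, -0.03 ± 0.01 in the model, -0.07 ± 0.05 in FUCO-0.5, 0.06 ± 0.06 in FUCO-1, 0.16 ± 0.07 in FUCO-2 and -0.34 ± 0.04 in RES (SD, n = 3). Every Con and FUCO-2 library had a positive difference of at least 0.11, and every RES library a difference of -0.31 or lower. The scores are given without a test, since the genes were chosen. Of all counts, the mitosis genes took 0.154% to 0.176% in Con, 0.207% to 0.221% in the model, 0.175% to 0.194% in FUCO-2 and 0.274% to 0.297% in RES. The replication genes took 0.191% to 0.204% in Con, 0.209% to 0.219% in the model, 0.213% to 0.217% in FUCO-2 and 0.224% to 0.234% in RES. Their highest share was 0.244%, in FUCO-0.5. These shares use no TMM factors, and by them the replication genes in RES lay above the model, whereas their mean score was lower. By mean level, 17 of the 23 mitosis genes were highest in RES, 13 were lowest in Con and the other 10 were lowest in FUCO-2. Of the 22 replication genes, 13 were highest in FUCO-0.5.

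The first comparison asked what FFA alone did to these genes. In the model, 19 of 23 mitosis genes were higher than in Con and none was lower, with a median log2 fold change of 0.35 (27.4% above Con) and a positive value for all 23. Among all tested genes, 8.43% were called higher and 9.12% lower, with a median of 0.00. Of the replication genes 3 of 22 were called, 2 higher (9.09%) and 1 lower (4.55%), which is near or below those shares. Their median was 0.11, with a positive value for 17 of 22. The libraries of the 2 groups did not overlap for 21 mitosis genes, all higher in the model, and for 10 replication genes, 9 of them higher, where 17.9% of all tested genes were higher and 17.8% lower without overlap.

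KIF23, a kinesin of the central spindle in cytokinesis, was at 37.5, 34.8 and 34.7 CPM in Con against 53.9, 52.0 and 52.6 CPM in the model. BIRC5 (survivin), a subunit of the chromosomal passenger complex, was at 73.5, 64.1 and 62.0 CPM in Con against 95.03, 92.1 and 99.3 CPM in the model. CCNB1 (cyclin B1), the partner of CDK1 at mitotic entry, was at 81.3, 71.8 and 72.4 CPM in Con against 100.2, 103 and 106 CPM in the model. All model libraries lay above all Con libraries for these 3 genes, and Con replicate 1 was the highest of its group each time. The log2 fold changes by edgeR's quasi-likelihood test were 0.57 ± 0.08 for KIF23 (SE, adjusted p = 2.08e-05), 0.52 ± 0.08 for BIRC5 (adjusted p = 5.89e-05) and 0.46 ± 0.07 for CCNB1 (adjusted p = 8.98e-05).

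MKI67, the source of the Ki-67 proliferation antigen, was at 104, 101 and 102 CPM in Con against 136, 116 and 129 CPM in the model. TOP2A, the topoisomerase that untangles sister chromatids, was at 291, 246 and 249.5 CPM in Con against 356, 338 and 371 CPM in the model. Both rose without overlap, by log2 values of 0.31 (adjusted p = 0.0119, edgeR's quasi-likelihood test) and 0.44 (adjusted p = 0.000421). The mitotic kinases rose as well, with log2 fold changes of 0.42 for PLK1, 0.44 for AURKA and 0.43 for AURKB, as did the spindle checkpoint genes BUB1 (0.38), BUB1B (0.31) and TTK (0.30). The kinesins KIF11 and KIF20A rose by 0.41 and 0.51, and the centromere proteins CENPE and CENPF by 0.31 and 0.30. CDC20 and UBE2C, which activate and serve the anaphase-promoting complex, rose by 0.45 and 0.23, CCNB2 (cyclin B2) by 0.35 and TPX2 by 0.27.

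The 4 mitosis genes that were not called were CCNA2 (cyclin A2) at 0.19, CDK1 at 0.08, CDC25C, the phosphatase that activates CDK1, at 0.12, and FOXM1 at 0.17. FOXM1, a transcription factor of the mitotic genes, was at 131, 111 and 117 CPM in Con against 141, 125 and 139.6 CPM in the model. These groups overlapped, and the adjusted p was 0.145 (edgeR's quasi-likelihood test).

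Of the replication genes, CCNE1 (cyclin E1), the CDK2 partner at the G1 to S transition, was at 29.5, 19.6 and 22.1 CPM in Con against 34.4, 33.4 and 37.1 CPM in the model. CDC45, a subunit of the replicative helicase, was at 33.2, 24.1 and 26.8 CPM in Con against 36.0, 33.0 and 33.7 CPM in the model. CDT1, which loads the MCM helicase onto origins and carries the E2F core shown above, was at 75.1, 72.4 and 76.9 CPM in Con against 64.2, 56.3 and 57.2 CPM in the model. The model lay above Con without overlap for CCNE1 and below it without overlap for CDT1, whereas for CDC45 Con replicate 1 lay within the range of the model. The log2 fold changes by edgeR's quasi-likelihood test were 0.56 ± 0.12 for CCNE1 (SE, adjusted p = 0.00134), 0.29 ± 0.09 for CDC45 (adjusted p = 0.0284) and -0.34 ± 0.11 for CDT1 (adjusted p = 0.0357).

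The other replication genes stayed below the threshold. PCNA was at 189, 186 and 197 CPM in Con against 209, 203 and 219 CPM in the model, without overlap (log2 fold change 0.14, 95% interval -0.00 to 0.28). E2F1 was at 47.3, 49.1 and 52.7 CPM in Con against 47.3, 46.8 and 46.03 CPM in the model, and CCNE2 (cyclin E2) at 11.04, 12.001 and 10.8 against 13.2, 12.2 and 11.4 CPM. Neither was called, at -0.09 and 0.12. The 6 subunits of the MCM helicase had log2 fold changes between -0.11 (MCM4) and 0.14 (MCM7), and RRM2, the regulated subunit of ribonucleotide reductase, had 0.19 with an adjusted p of 0.0507 by edgeR's quasi-likelihood test.

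Of 53 other mitosis genes, 22 were higher (41.5%) and 1 lower (1.89%) in the model, with a median of 0.24. Of 46 other replication genes 9 were higher (19.6%) and 1 lower (2.17%), with a median of 0.08. Among all tested genes the shares were 8.43% and 9.12%. In the mitosis list NCAPG, a condensin subunit, rose by 0.60 and RACGAP1, a cytokinesis regulator that binds KIF23, by 0.41. The centromere protein gene CENPI fell by 0.61 on the log2 scale. In the replication list POLD3, a subunit of DNA polymerase delta, rose by 0.51. CHAF1B, a chromatin assembly factor subunit, rose by 0.35 and TIMELESS, a fork protection factor, fell by 0.21. Without Con replicate 1, 19 mitosis genes were called higher and 3 replication genes, all higher, so CDT1 was no longer called. The replication count fell to 1 without Con replicate 2, Con replicate 3 or model replicate 3, and with library totals in place of TMM factors it was 5, all higher. The calls of MKI67, PLK1, TPX2, TTK, CENPE, UBE2C, CDC45 and CDT1 were each lost without at least 1 Con or model library, and that of UBE2C was lost under 6 of 24 alternatives (adjusted p up to 0.187, edgeR's quasi-likelihood test).

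**Figure D2:**
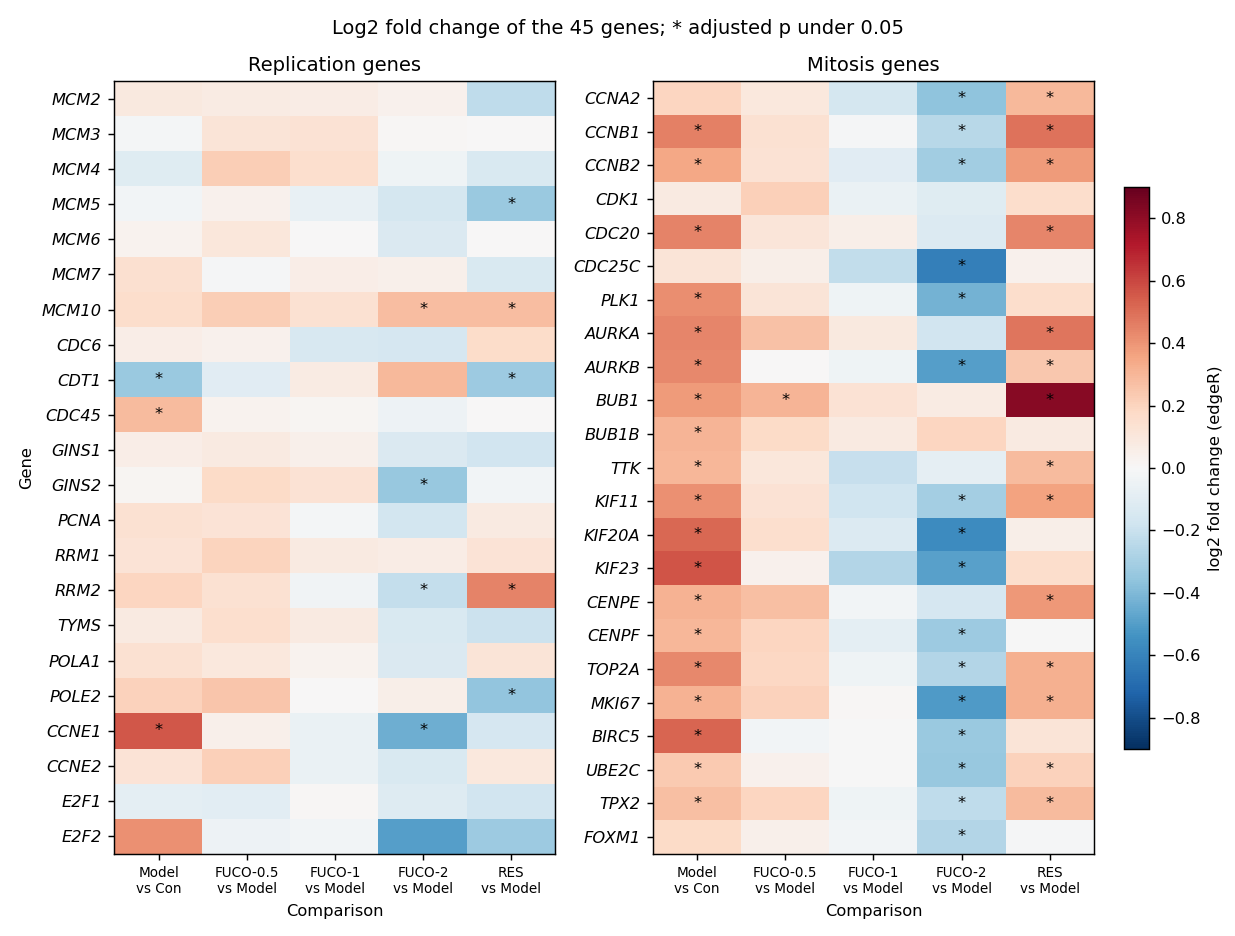
Log2 fold change (color) of each of the 22 replication and 23 mitosis genes in 5 comparisons; asterisks mark an adjusted p under 0.05 by edgeR's quasi-likelihood test. Of the 23 mitosis genes, 19 were called higher in the model than in Con, 16 lower in FUCO-2 than in the model, and 14 higher in RES than in the model.

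The next comparisons asked how the 3 FUCO doses changed these genes in FFA-treated cells. They share the model libraries with one another and with the comparison above, so each is given with its own values. At 0.5 µM, 1 of 23 mitosis genes and none of the 22 replication genes was called, where 1.45% of all tested genes were called, 0.289% higher and 1.16% lower. The medians were 0.13 for the mitosis and 0.10 for the replication genes, against 0.00 for all tested genes, and 22 of 23 and 18 of 22 values were positive. For 13 mitosis and 6 replication genes all FUCO-0.5 libraries lay above all model libraries, and none lay below them, where 9.71% of all tested genes were higher and 9.85% lower without overlap. At an unadjusted p under 0.05, the test gave 4 replication genes and 9 mitosis genes, and DESeq2 called 1 replication gene.

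The called gene was BUB1, a kinase of the spindle checkpoint, at 57.0, 60.5 and 57.0 CPM in FUCO-0.5 against 48.7, 44.1 and 48.2 CPM in the model. The rise was 0.31 in log2 terms, with an SE of 0.07 and an adjusted p of 0.0208 by edgeR's quasi-likelihood test, and all 3 libraries lay above the model. The call was lost without any 1 of the 3 model libraries, with an adjusted p of up to 0.180 by the same edgeR test (without model replicate 2), and without replicate 1 or 2 of FUCO-0.5. Of the 46 other replication genes, PRIM2, a primase subunit, was called, with a rise of 0.31.

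MKI67 was at 141, 143 and 155 CPM, TOP2A at 418, 394 and 401 CPM and FOXM1 at 136, 133 and 149 CPM in FUCO-0.5. MKI67 and TOP2A lay above the model libraries without overlap, at log2 values of 0.21 and 0.19 with adjusted p-values of 0.317 and 0.358 by edgeR's quasi-likelihood test. PCNA was at 235, 229 and 225 CPM, CCNE2 at 14.4, 15.1 and 13.2 CPM, E2F1 at 43.96, 38.2 and 49.4 CPM and CDT1 at 56.9, 45.9 and 62.9 CPM. PCNA lay above the model libraries and the other 3 overlapped them, and none was called.

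At 1 µM, none of the 45 genes was called against the model, where 3.21% of all tested genes were, 0.893% higher and 2.32% lower. The medians were 0.03 for the replication and -0.04 for the mitosis genes, against -0.00 for all tested genes. At an unadjusted p under 0.05, edgeR's test gave 1 replication and 5 mitosis genes, and DESeq2 called 1 mitosis gene and no replication gene. The lowest value was that of KIF23, at 45.6, 43.5 and 43.0 CPM, which lay below the model without overlap (log2 fold change -0.26, adjusted p = 0.0682, edgeR's quasi-likelihood test). Of the other replication genes, geminin (GMNN), the inhibitor of CDT1, fell by 0.47 on the log2 scale.

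MKI67 was at 135, 108 and 141 CPM, TOP2A at 384, 339 and 312 CPM and FOXM1 at 129, 126 and 144 CPM in FUCO-1. All 3 overlapped the model, and the log2 fold change of MKI67 was 0.01, with a 95% interval from -0.16 to 0.18. PCNA was at 213, 221 and 189 CPM, CCNE2 at 13.2, 12.2 and 9.77 CPM, E2F1 at 43.5, 48.0 and 49.8 CPM and CDT1 at 61.6, 56.3 and 69.0 CPM, each overlapping the model.

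At 2 µM the mitosis genes were lower than in the model. Of 23 genes 16 were called lower and none higher, with a median log2 fold change of -0.31, where 9.71% of all tested genes were called lower, 10.8% higher, and the median was 0.01. Of the 22 replication genes 3 were called lower (13.6%) and 1 higher (4.55%), with a median of -0.13. Negative values were found for 21 mitosis and 15 replication genes. All FUCO-2 libraries lay below all model libraries for 17 mitosis and 6 replication genes, and above them for 1 of each set, where 17.7% of all tested genes were lower and 18.6% higher without overlap.

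KIF23 was at 35.0, 35.4 and 42.4 CPM in FUCO-2, against at least 52.0 CPM in the model. MKI67 was at 87.1, 86.2 and 94.1 CPM, against at least 116 CPM. KIF20A, a kinesin of the cleavage furrow, was at 45.7, 40.8 and 48.1 CPM in the model and at 28.7, 27.9 and 34.5 CPM in FUCO-2. Groups did not overlap for any of the 3, and FUCO-2 replicate 3 was the highest of its group each time. The log2 fold changes by edgeR's quasi-likelihood test were -0.49 ± 0.08 for KIF23 (SE, adjusted p = 0.000112), -0.51 ± 0.08 for MKI67 (adjusted p = 0.000141) and -0.57 ± 0.09 for KIF20A (adjusted p = 0.000147).

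CDC25C had the lowest value of the set, at -0.61 (10.8, 12.7 and 13.4 CPM in FUCO-2 against 18.6, 18.6 and 19.3 CPM in the model). TOP2A was at 285, 287 and 315 CPM and FOXM1 at 122, 104 and 112 CPM in FUCO-2, and both fell without overlap, by 0.26 and 0.26 on the log2 scale (adjusted p = 0.0205 and 0.0218, edgeR's quasi-likelihood test). The kinases PLK1 and AURKB fell by 0.43 and 0.50, and the cyclins CCNA2, CCNB1 and CCNB2 by 0.36, 0.25 and 0.31 on the log2 scale. BIRC5, KIF11, CENPF, UBE2C and TPX2 fell by between 0.23 and 0.34.

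The 7 mitosis genes that were not called included all 3 checkpoint genes of the set. BUB1B, a subunit of the mitotic checkpoint complex, was at 85.6, 84.7 and 87.1 CPM in FUCO-2 and at 71.0, 74.1 and 80.1 CPM in the model, above it without overlap (log2 fold change 0.19, adjusted p = 0.066, edgeR's quasi-likelihood test). BUB1 was at 46.7, 48.6 and 53.2 CPM, with a log2 fold change of 0.07, and TTK had -0.08. The remaining values were -0.11 for CDK1, -0.12 for CDC20, -0.15 for CENPE and -0.17 for AURKA.

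Among the replication genes, CCNE1 was at 22.9, 25.3 and 29.0 CPM in FUCO-2, below every model library. RRM2 was at 82.9, 77.6 and 82.9 CPM against 91.2, 92.9 and 97.9 CPM in the model, and GINS2, a subunit of the helicase that carries the E2F core shown above, at 13.9, 14.9 and 16.3 against 19.9, 16.0 and 21.4 CPM. RRM2 did not overlap between groups, and GINS2 did. Their log2 fold changes were -0.44 for CCNE1, -0.21 for RRM2 and -0.34 for GINS2, with adjusted p-values of 0.00781, 0.0287 and 0.0384 by edgeR's quasi-likelihood test.

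MCM10, an initiation factor that activates the loaded helicase, went the other way, at 21.6, 24.8 and 24.2 CPM against 20.1, 18.7 and 19.7 CPM in the model (log2 fold change 0.27, adjusted p = 0.0242, edgeR's quasi-likelihood test). CDT1 was at 86.0, 69.4 and 62.0 CPM in FUCO-2, with a log2 fold change of 0.29 that was not called, and replicate 1 was the highest. PCNA was at 183, 182 and 198 CPM, E2F1 at 48.0, 40.4 and 41.0 CPM and CCNE2 at 11.4, 9.79 and 12.3 CPM, with log2 fold changes of -0.17, -0.12 and -0.14. None of these 3 was called, although all FUCO-2 libraries were below all model libraries for PCNA.

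Of the 53 other mitosis genes 17 were lower and none higher in FUCO-2, with a median of -0.13, and RACGAP1 (-0.47) and GTSE1 (-0.51), a microtubule-binding protein of G2, had the smallest adjusted p-values. Of the 46 other replication genes 3 were higher (6.52%) and 6 lower (13.0%), against 10.8% and 9.71% of all tested genes, with a median of 0.03. GMNN was lowest in adjusted p, with a log2 fold change of -0.51. TICRR, an origin firing factor, fell by 0.35, while ORC2 of the origin recognition complex and the chromatin assembly gene CHAF1A rose by 0.33 and 0.23. Without FUCO-2 replicate 1, 15 mitosis genes were called lower and 4 replication genes were called, 1 higher and 3 lower. The replication count fell to 1 without model replicate 3 or FUCO-2 replicate 2 and to 2 without model replicate 2, and with library totals in place of TMM factors it was 2 higher and 1 lower. Calls of CCNB1, CCNB2, FOXM1, TOP2A, TPX2, RRM2, GINS2 and MCM10 were each lost without at least 1 model or FUCO-2 library, those of TOP2A and GINS2 also without FUCO-2 replicate 1 (adjusted p = 0.0538 and 0.116, edgeR's quasi-likelihood test).

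Against Con, in which no FFA was given, the FUCO groups differed in how far the mitosis genes were raised. At 0.5 µM, 21 of 23 mitosis genes were higher (median 0.50) and 9 replication genes were higher and 1 lower (median 0.21), where 10.4% of all tested genes were higher and 11.4% lower. At 1 µM, 18 mitosis genes (median 0.31) and 4 replication genes (median 0.15) were higher and none was lower, where 8.22% of all tested genes were higher and 10.1% lower. At 2 µM, 5 mitosis genes were higher and 1 lower, with a median of 0.04, and 2 replication genes were higher and 1 lower, with a median of -0.02, where 13.0% of all tested genes were higher and 11.9% lower. The genes higher in FUCO-2 than in Con were CCNB1 (0.21), CDC20 (0.32), AURKA (0.27), BUB1 (0.46) and BUB1B (0.50), and CDC25C was lower (-0.49). The Con libraries are shared by these comparisons. All libraries of the FUCO group lay above all Con libraries for 37 of the 45 genes at 0.5 µM and for 24 at 1 µM, and below them for 1 gene at each dose, where 35.2% and 30.1% of all tested genes did not overlap in either direction. At 2 µM, 6 genes lay above and 6 below, where 33.9% of all tested genes did not overlap. Without Con replicate 1, 22 mitosis genes were higher at 0.5 µM and 18 at 1 µM, and the replication genes were 7 higher and 1 lower, and 4 higher and none lower. At 2 µM the mitosis genes were then 7 higher and 1 lower and the replication genes 4 higher and none lower, and without FUCO-2 replicate 1 they were 4 higher and 1 lower, and 3 higher and 2 lower. Library totals in place of TMM factors shifted the median of all tested genes by 0.12 at 2 µM and gave 10 mitosis genes higher and 1 lower and 5 replication genes higher and none lower.

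The doses were also compared with each other. Between 2 and 1 µM, 9 mitosis genes and 2 replication genes, CCNE1 and GINS2, were lower at the higher dose and none was higher (medians -0.23 and -0.12), where 2.23% of all tested genes were lower and 4.07% higher. MKI67 was among the 9, with a log2 fold change of -0.52 (adjusted p = 0.000435, edgeR's quasi-likelihood test). Between 2 and 0.5 µM, a comparison added after the values had been seen, 20 mitosis genes were lower and none higher (median -0.43), and 8 replication genes were lower and 1, CDT1, higher (median -0.21), where 6.68% of all tested genes were lower and 8.43% higher. Without FUCO-2 replicate 1 the CDT1 call was lost (log2 fold change 0.25 in place of 0.39, adjusted p = 0.133 in place of 0.0175, edgeR's quasi-likelihood test), and 20 mitosis and 6 replication genes were lower. Against 1 µM, 7 mitosis genes and 1 replication gene were then lower. Between 1 and 0.5 µM, also added, none of the 45 genes was called, where 0.00687% of all tested genes were, although 22 of 23 mitosis values were negative, with a median of -0.23. At an unadjusted p under 0.05, edgeR's test gave 14 mitosis and 5 replication genes there, and DESeq2 called 2 of the 45.

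**Figure D3:**
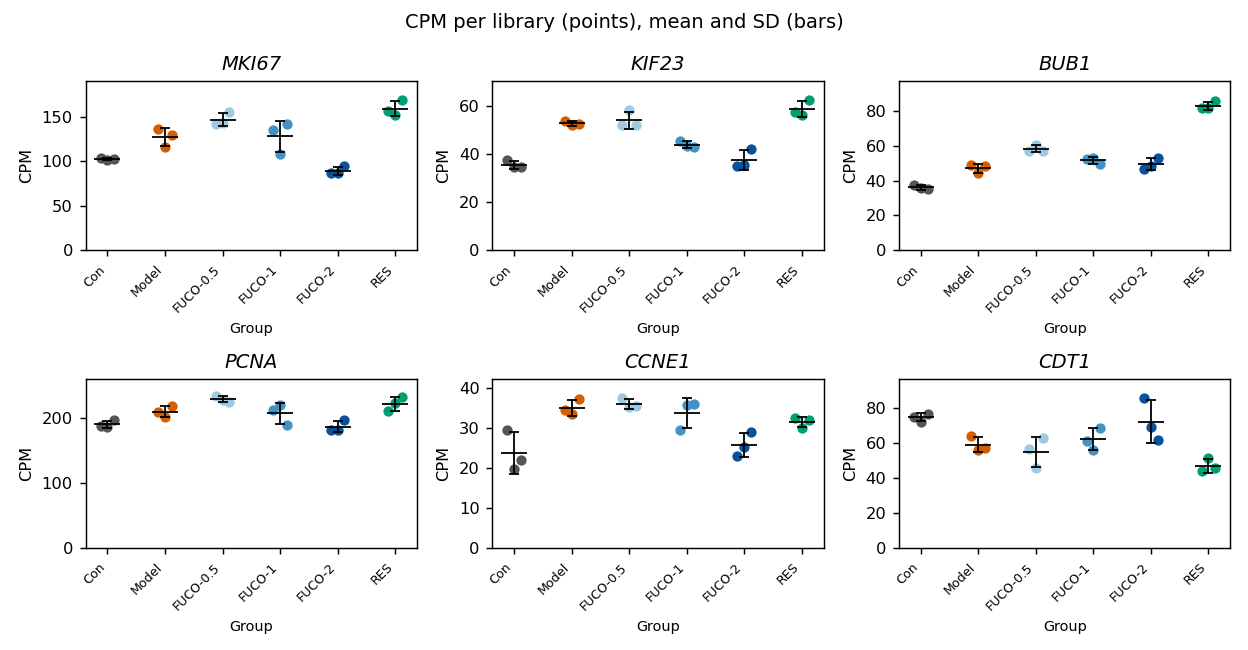
CPM of 3 mitosis genes (MKI67, KIF23 and BUB1) and 3 replication genes (PCNA, CCNE1 and CDT1) in each library (points), with mean and SD (bars, n = 3); each axis starts at 0. MKI67 and KIF23 were at 89.1 and 37.6 CPM on average in FUCO-2 against 127 and 52.9 CPM in the model, whereas BUB1 stood at 49.5 against 47.0 CPM and reached 82.8 CPM in RES.

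With RES, the mitosis genes were higher than in the model. Of 23 genes 14 were called higher and none lower, with a median of 0.28, while of the 22 replication genes 2 were called higher and 3 lower, with a median of -0.08. RES altered the transcriptome broadly, since 24.4% of all tested genes were called higher and 25.1% lower, with a median of 0.00, so that 5 calls among 22 replication genes (22.7%) was below the share of all tested genes called. All RES libraries lay above all model libraries for 17 mitosis and 5 replication genes, and below them for no mitosis and 10 replication genes, where 64.0% of all tested genes did not overlap, 32.2% higher and 31.8% lower.

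BUB1 was at 81.4, 81.5 and 85.6 CPM in RES, against at most 48.7 CPM in the model. CCNB1 was at 141, 141 and 152 CPM, against at most 106 CPM. AURKA, a kinase of the spindle poles, was at 80.1, 79.6 and 80.1 CPM in RES and at 56.6, 55.6 and 59.1 CPM in the model. All 3 were separated from the model by more than the spread within either group. The log2 fold changes by edgeR's quasi-likelihood test were 0.82 ± 0.07 for BUB1 (SE, adjusted p = 7.12e-10), 0.49 ± 0.07 for CCNB1 (adjusted p = 3.93e-06) and 0.48 ± 0.09 for AURKA (adjusted p = 0.000111).

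MKI67 was at 156, 152 and 168 CPM and TOP2A at 423, 435 and 469 CPM in RES, above all libraries of the model, and both rose by 0.32 (adjusted p = 0.00254 and 0.00192, edgeR's quasi-likelihood test). CCNA2 rose by 0.29, CCNB2 by 0.38, CDC20 by 0.44, KIF11 by 0.36 and CENPE by 0.39. AURKB, TTK, TPX2 and UBE2C rose by between 0.21 and 0.28. FOXM1, at 127, 135 and 140.0 CPM, overlapped the model, and its log2 fold change was -0.01, with a 95% interval from -0.18 to 0.15. CENPF (-0.00), CDC25C (0.04), KIF20A (0.05) and BUB1B (0.08) were also near 0, and CDK1, PLK1 and KIF23 each had 0.16 without being called.

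Within the replication genes, the 2 that rose with RES were RRM2, at 125, 129 and 131 CPM, and MCM10, at 23.6, 23.04 and 24.02 CPM. MCM5, a subunit of the replicative helicase, was at 149, 154 and 159 CPM in RES and at 203, 185 and 195 CPM in the model. POLE2, a subunit of DNA polymerase epsilon that carries the E2F core shown above, was at 10.1, 9.42 and 10.2 against 12.3, 11.96 and 13.8 CPM. None of these 4 overlapped the model. The log2 fold changes by edgeR's quasi-likelihood test were 0.45 ± 0.07 for RRM2 (SE, adjusted p = 5.91e-06), 0.28 ± 0.08 for MCM10 (adjusted p = 0.00891), -0.33 ± 0.09 for MCM5 (adjusted p = 0.00292) and -0.36 ± 0.11 for POLE2 (adjusted p = 0.00821).

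CDT1 was at 44.2, 51.8 and 45.7 CPM in RES, below all model libraries, and fell by 0.33 on the log2 scale (adjusted p = 0.017, edgeR's quasi-likelihood test). PCNA was at 211, 223 and 232 CPM, E2F1 at 42.3, 40.4 and 41.5 CPM and CCNE2 at 13.8, 13.0 and 12.4 CPM, with log2 fold changes of 0.08, -0.17 and 0.09, none of them called. E2F1 lay below the model without overlap. With library totals in place of TMM factors the median of all tested genes shifted by 0.14, and the calls among the replication genes became 6 higher and none lower, so the split of that set in RES depended on the scaling, whereas the mitosis genes were then 19 higher and none lower. Without FUCO-2 replicate 1, which enters only through the shared estimate of the spread, the replication calls were 3 higher and 5 lower. Calls of AURKB, TTK, UBE2C, POLE2 and CDT1 were each lost without at least 1 model or RES library.

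Of the 53 other mitosis genes 34 were higher and 3 lower in RES, with a median of 0.29, and the centrosome kinase NEK2 rose by 0.85, from 41.5 ± 5.59 to 74.97 ± 2.25 CPM (SD, n = 3). HMMR, a spindle protein, rose by 0.81, while MYBL2 (B-MYB), a factor of the mitotic program, and CENPI fell by 0.46 and 0.47 on the log2 scale. Of the 46 other replication genes 10 were higher (21.7%) and 8 lower (17.4%), with a median of 0.06. Both shares were below the 24.4% and 25.1% of all tested genes. ORC5 of the origin recognition complex and RPA3 of the single-strand binding complex rose by 0.57 and 0.52, whereas POLE, the catalytic subunit of DNA polymerase epsilon, was at 118, 111 and 108 CPM against 191, 180.4 and 175 CPM in the model (log2 fold change -0.70, adjusted p = 8.01e-08, edgeR's quasi-likelihood test). POLE and its partner POLE2 were thus both lower with RES, and GMNN fell by 0.53.

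Against Con, 21 of 23 mitosis genes were higher in RES, with a median of 0.63 (54.99% above Con), and none was lower, where 28.8% of all tested genes were higher and 28.5% lower. Of the replication genes 8 were higher and 4 lower, with a median of 0.02. BUB1 had a log2 fold change of 1.202 (adjusted p = 5.52e-13, edgeR's quasi-likelihood test), and was the only one of the 45 genes in the 12 comparisons run to pass the study's further threshold of an absolute log2 fold change over 1. That threshold was passed by 13.3% of all tested genes in RES and 1.95% in the model against Con, by 2.38%, 2.34% and 3.17% at the rising FUCO doses against Con, by 0.268%, 0.495% and 1.60% at those doses and 9.91% in RES against the model, and by 0.577%, 1.08% and 0% between the FUCO doses of 2 and 1, 2 and 0.5, and 1 and 0.5 µM. CDT1 was the lowest, at -0.67. Without Con replicate 1, 22 mitosis genes were higher and the replication genes were 8 higher and 4 lower. Library totals shifted the median of all tested genes by 0.19, with 23 mitosis genes higher and the replication genes 12 higher and 1 lower.

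The regulators upstream of both sets were followed as well. Of 24 genes of the G1 machinery, 2 were higher and 1 lower in the model than in Con, none, none, 4 and 5 were higher than in the model at the rising FUCO doses and in RES, and 1, 2, 4 and 5 were lower. Against the shares of all tested genes called, 8.43% higher and 9.12% lower with FFA and 24.4% and 25.1% with RES, the 8.33% and 4.17% of this list with FFA and the 20.8% in each direction with RES were near or below them. In FUCO-2 the list had 16.7% in each direction, against 10.8% and 9.71%. At 0.5 and 1 µM FUCO 4.17% and 8.33% of the list were lower, against 1.16% and 2.32% of all tested genes. MYC, a growth-promoting transcription factor, was at 274, 191 and 192 CPM in the Con libraries, 320.0, 339 and 339 CPM in the model, 191, 187 and 190.4 CPM in FUCO-0.5 and 209, 188 and 189 CPM in FUCO-1. It was at 305, 328 and 230.0 CPM in FUCO-2 and at 372, 383 and 323 CPM in RES. MYC thus rose with FFA (0.60), fell at 0.5 and 1 µM FUCO (by 0.81 and 0.77 on the log2 scale) and was not called at 2 µM (-0.21). A relation of MYC to the 45 genes was not tested.

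CCND1 (cyclin D1), the partner of CDK4 and CDK6, was at 71.8 ± 4.81 CPM in the model, 90.9 ± 10.4 CPM in FUCO-2 and 43.4 ± 4.51 CPM in RES (SD, n = 3). It rose by 0.34 in FUCO-2 and fell by 0.73 in RES on the log2 scale (adjusted p = 0.00931 and 5.8e-07, edgeR's quasi-likelihood test). The FUCO-2 call of CCND1 was lost without FUCO-2 replicate 1 or model replicate 1. CDK6 rose by 0.25 in the model and by 0.43 in FUCO-2, where CDK2 and E2F7 fell by 0.27 and 0.26. SKP2, which targets p27 for degradation, fell by 0.25 in the model and by 0.37 in RES, and CCND3 (cyclin D3) and E2F6 rose by 0.64 and 0.33 in RES. RB1, which encodes the retinoblastoma protein, had low levels of 2.24 to 5.59 CPM in all libraries and fell at 1 µM FUCO (log2 fold change -0.78, adjusted p = 0.0103, edgeR's quasi-likelihood test), a call that was lost without FUCO-1 replicate 1, FUCO-1 replicate 2 or model replicate 1 (adjusted p up to 0.0716).

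The 7 inhibitors of cyclin-dependent kinases did not move in one direction. CDKN2B (p15) was at 22.9, 23.3 and 25.2 CPM in the Con libraries, 10.1, 11.9 and 10.2 CPM in the model and 26.5, 27.1 and 20.4 CPM in FUCO-2. It was thus lower with FFA (log2 fold change -1.15, adjusted p = 9.52e-07, edgeR's quasi-likelihood test) and higher in FUCO-2 than in the model (2.30-fold, adjusted p = 5.11e-07), and stood at 18.5 ± 1.87 CPM in RES (SD, n = 3). CDKN1C (p57) was at 187, 155 and 170.3 CPM in the model and at 33.5, 31.6 and 30.9 CPM in RES, a log2 fold change of -2.42. CDKN1A (p21) was at 22.04, 17.5 and 22.4 CPM in the model and at 53.7, 52.3 and 35.1 CPM in RES (1.19), while in FUCO-2 it was at 15.5, 11.6 and 16.1 CPM (-0.52). CDKN1B (p27) had a log2 fold change of 0.23 in the model, with a call that was lost under 13 of 24 alternatives (adjusted p = 0.0469, up to 0.168, edgeR's quasi-likelihood test), and of 0.22 in RES, lost under 3. The CDKN1A call in FUCO-2 was lost without FUCO-2 replicate 2 or model replicate 1 or 3. CDKN2D (p19), at low levels of 1.33 to 5.52 CPM in all libraries, fell by 0.65 in the model and by 0.81 in FUCO-2, where CDKN2A (p16) rose by 0.23. The calls of CDKN2D and CDKN2A are not given under the alternatives. CDKN2C (p18), at 1.76 to 7.81 CPM in all libraries, fell by 0.89 in FUCO-2 on the log2 scale and rose by 0.67 in RES.

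**Figure D4:**
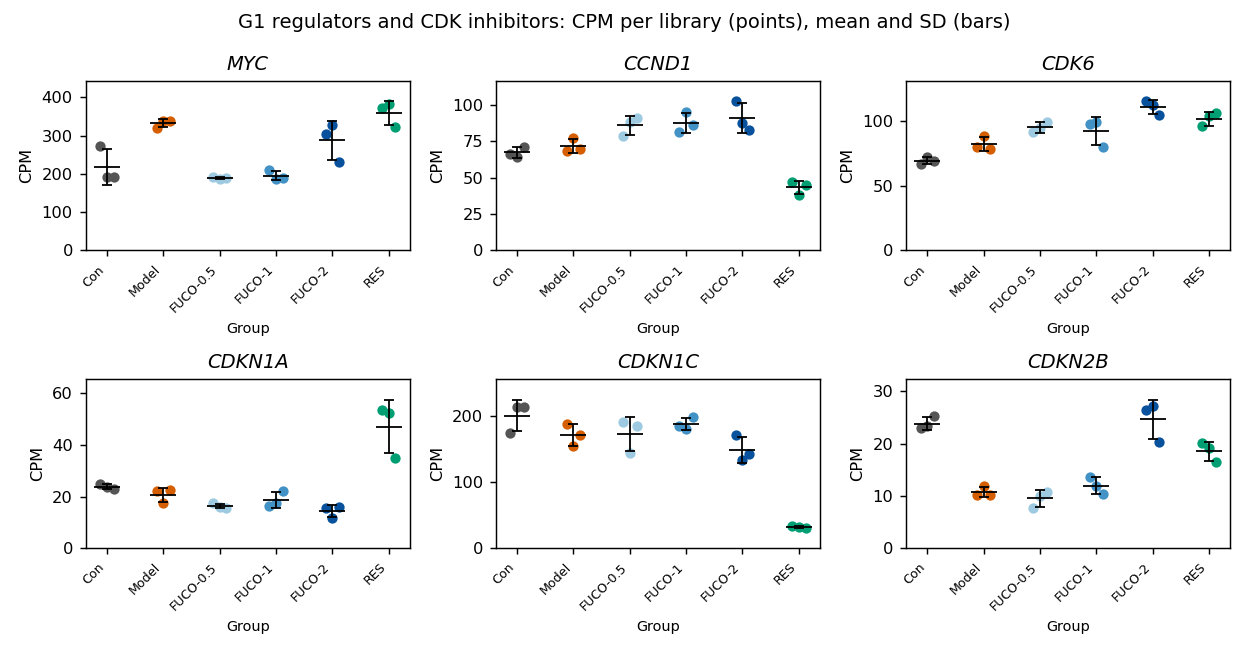
CPM of 3 G1 regulators (MYC, CCND1 and CDK6) and 3 inhibitors of cyclin-dependent kinases (CDKN1A, CDKN1C and CDKN2B) in each library (points), with mean and SD (bars, n = 3); each axis starts at 0. CDKN2B was at 10.7 CPM on average in the model against 23.8 CPM in Con and 24.7 CPM in FUCO-2, and CDKN1C was at 32.0 CPM in RES against 171 CPM in the model.

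The hepatocyte and hepatoma markers also differed in several of these comparisons. None of them was called at 0.5 µM FUCO against the model and 1 was lower at 1 µM, where 1.16% and 2.32% of all tested genes were lower. Of 10 markers 6 were lower in the model than in Con, 9 were lower in FUCO-2 than in the model, and 9 were lower and 1 higher in RES, where 9.12%, 9.71% and 25.1% of all tested genes were lower. The mitosis genes were higher in 2 of these comparisons and lower in the other, and a part of the markers in these results was not tested. The strand setting of the read counting is not given in the sources used here. From start to end, introns included, 22 of the 45 genes overlap another RefSeq gene, such as PCNA with PCNA-AS1, TYMS with ENOSF1 and KIF23 with KIF23-AS1. Reads from a stretch that such a pair shares may not be told apart, and overlap of exons was not examined.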

How the data were processed

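Poly(A) RNA of 18 Hep3B libraries, 3 per group, was sequenced as paired ends. The authors used fastp for trimming, STAR for alignment (genome build GRCh38.p14) and featureCounts for counting per gene. The deposited values are whole-number counts per gene symbol. Strand and multimapping settings are not given in the sources used here. From these counts, CPM values with TMM factors and edgeR quasi-likelihood tests (edgeR 4.0.16, R 4.3.3, 1 term per group, all 18 libraries) were computed for the 14557 genes kept by filterByExpr (minimum count 10, minimum total 15). P-values were adjusted by the Benjamini-Hochberg method over these genes and called under 0.05. The fit was also run on counts simulated from its own mean levels and dispersions. Such a run checks the code and cannot show how well the model suits these data. Scores used log2 CPM with a prior count of 2. The study describes replicates as separate biological samples.

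The 45 genes and the other gene lists were chosen with earlier results of these data known. Genes given with every library's value were MKI67, PCNA, TOP2A, CCNE2, E2F1, FOXM1 and CDT1, and in each main comparison the 3 called genes of each set with the smallest adjusted p. For the other lists, the 2 called genes with the smallest adjusted p in each direction were named, with CCND1, CDKN1A, CDKN1B, CDKN2C, MYC and RB1 always given. One further gene of those always given is not reported here. Values of further members were added for description. Alternatives were DESeq2 1.42.0, other scalings and filters, fits on 2 groups, a replicate block and leaving out each library. Same-numbered replicates shared little deviation, with a median correlation of 0.02, and of 45 pairs 7 had a correlation over 0.1. For replicate 2, pairs among the model and FUCO groups ran from 0.097 to 0.194. Pairs of RES replicate 2 with replicate 2 of the other groups ran from -0.078 to -0.011.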

Additional observations from a re-analysis of the deposited data

How the results depend on the processing

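None of the 75 called single-gene results reversed its direction under the 24 alternatives run on them, which do not include library totals. With library totals, chosen after seeing the data, the median of the replication genes in RES against the model turned from -0.08 to 0.05 and the calls from 2 higher and 3 lower to 6 higher and 0 lower, and in FUCO-2 against the model the calls turned from 1 higher and 3 lower to 2 higher and 1 lower. In both cases the total count of called genes moved by less than 1.5 times. Total counts moved by more than 1.5 times, or away from 0, with DESeq2, library totals and fits on 2 groups as listed next. DESeq2 called 5 replication genes in the model against Con, 1 replication gene in FUCO-0.5 and 1 mitosis gene in FUCO-1 against the model, and 2 genes between FUCO-1 and FUCO-0.5. Library totals gave 5 replication genes in the model against Con, 1 in FUCO-0.5 against the model and 16 genes in FUCO-2 against Con. Fits on only the compared groups gave 3 mitosis genes in FUCO-0.5, 1 mitosis gene in FUCO-1, 1 replication gene in FUCO-2 and 13 replication genes in RES against the model, 13 genes in FUCO-1 and 4 in FUCO-2 against Con, and 5 genes in FUCO-2 against FUCO-1. Requiring also an absolute log2 fold change over 1 left 0 genes in every comparison except RES against Con, with 1. The cause of these shifts was not tested.

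Leaving out each library in turn, the replication counts ran from 1 to 4 in the model against Con, 0 to 0 in FUCO-0.5, 0 to 0 in FUCO-1, 1 to 6 in FUCO-2 and 4 to 8 in RES against the model. The mitosis counts ran from 15 to 19, 0 to 1, 0 to 1, 11 to 17 and 11 to 15. The count of 1 mitosis gene in FUCO-1 came without FUCO-2 replicate 1 or 3. Without Con replicate 1 or FUCO-2 replicate 1, alternatives also chosen after seeing the data, 30 genes were called in FUCO-0.5, 22 in FUCO-1, 10 to 12 in FUCO-2 and 34 in RES against Con, and 8 and 26 in FUCO-2 against FUCO-1 and FUCO-0.5. Of the 75 single-gene results, 47 kept their call under all 24 alternatives and 28 lost it under at least 1. With the replicate number as a block, 3 replication and 19 mitosis genes were called in the model against Con, 4 and 16 in FUCO-2, and 6 and 14 in RES against the model, and no count moved by over 1.5 times. E2F2, at 41 to 74 counts per library, was measured least precisely.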
